A study of Eohaustorius estuarius with 16 samples.

Results

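The array holds 8507 contigs, transcript fragments assembled from sequence of the estuarine amphipod Eohaustorius estuarius, and most of them are measured by 1 or 2 spots. The contigs described here are the 50 whose probe was printed 10 or 11 times, chosen by the number of spots alone. Of these, 7 had 10 spots and 43 had 11, against 2249 contigs with 1 spot and 6208 with 2. They took 543 of the 15208 contig spots of an array and gave 8688 readings over the 16 arrays. A total of 49 were bright enough to be tested, and contig_7105 was not. The contigs carry numbers and no gene names in the sources used here, so no role can be given to any of them.

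Whole-body total RNA was labelled with a single dye (Cy3) and hybridised to Agilent arrays in laboratory B of an interlaboratory comparison in which the extracts had been made by a single laboratory. The 8 control arrays came from amphipods kept for 10 days in sediment spiked with solvent, and the 8 cyfluthrin arrays from amphipods kept as long in sediment spiked with the insecticide at a nominal 1.6 µg/kg. From the labels it is not clear if each extract came from 1 animal, or if animals were housed together, and the p-values therefore refer to the spread among these 16 samples. The arrays lay on 2 slides with 4 control and 4 cyfluthrin arrays each, and the number of arrays limits the precision.

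Cyfluthrin is a pyrethroid, a class of insecticides that keeps voltage-gated sodium channels in nerve membranes from closing. Arthropods, to which amphipods belong, are the animals these compounds are aimed at. A probe printed many times on an array has its target measured repeatedly in the same hybridisation, so that the spread between its spots is the error of the array itself, whereas the spread between arrays also holds the labelling, the hybridisation and the animals.

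All levels are log2 processed signals relative to the 75th percentile of the contig spots of the same array, averaged over the spots of a contig. A signal depends on the probe as well as on the amount of transcript, so the order of brightness among contigs is not an order of abundance. The mean levels of the 50 contigs ran from -6.88 for contig_7105 to 2.95 for contig_1380, with a median of -1.71 and quartiles of -3.12 and -0.05. Over all contigs the median was -1.92 and the quartiles were -3.83 and -0.0354. The levels of all contigs ran from -7.50 to 6.64. The repeatedly printed contigs therefore covered much of the brightness range of the array, but none of its upper end above 2.95. Those tested ran from -4.94 to 2.95, against -5.97 to 6.64 over all tested contigs. When all tested contigs were split by mean level into 3 classes of equal size, 20 of the 49 fell into the dim class, 15 into the middle class and 14 into the bright class. No spot of the 50 was saturated on any array, and 42 of the 50 were well above background on all 16.

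**Figure D1:**
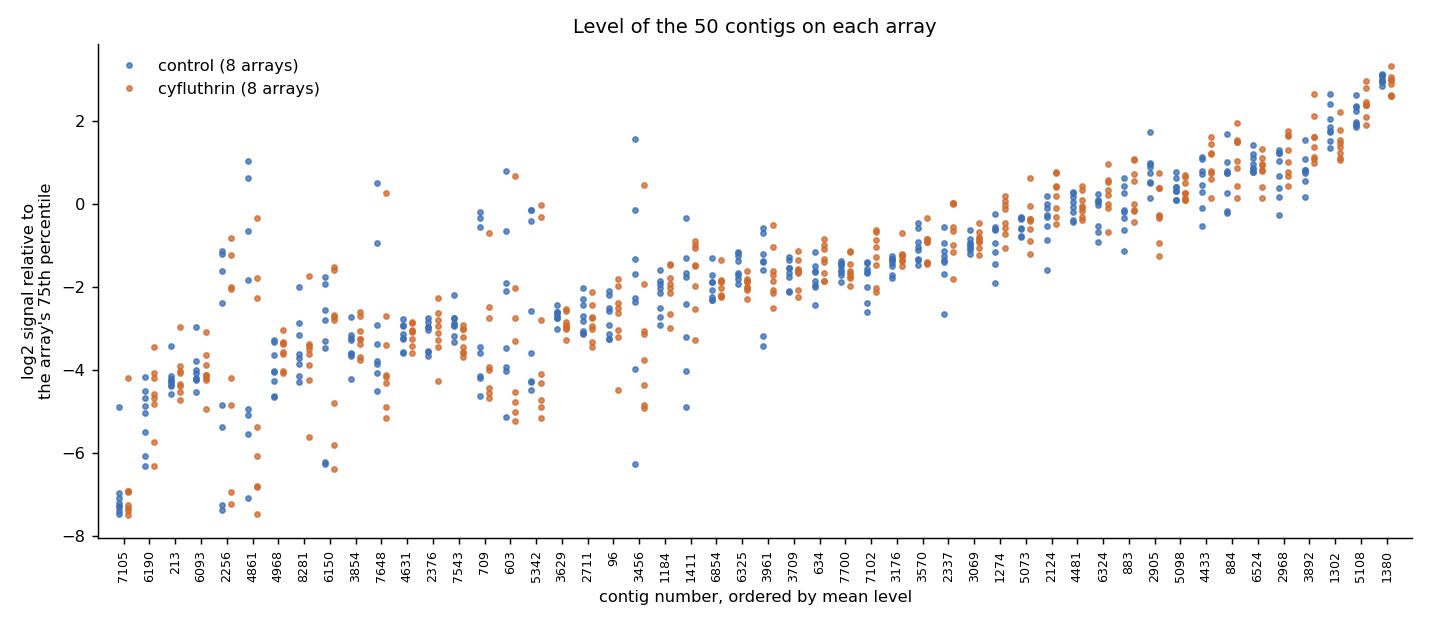
Level of each of the 50 contigs on each of the 16 arrays, as log2 signal relative to the array's 75th percentile, ordered along the horizontal axis by mean level; each point is an array, 8 control and 8 cyfluthrin per contig. The points of contig_1380, the brightest, lie close together, whereas contig_2256, contig_4861 and contig_3456 spread over many log2 units within both groups.

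The brightest contig, contig_1380, had levels of 2.85 to 3.13 in control (median 3.01) and of 2.59 to 3.31 with cyfluthrin (median 2.93). Its pooled SD between samples of a group, 0.196, was the smallest of the 49. The next brightest, contig_5108, ran from 1.84 to 2.62 in control (median 2.10) and from 1.91 to 2.97 with cyfluthrin (median 2.37). In both contigs the groups overlapped. The levels of contig_1302 were 1.35 to 2.64 in control (median 1.81) and 1.06 to 2.21 with cyfluthrin (median 1.42), again with overlap.

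At the other end, contig_7105 was well above background on 1 of the 16 arrays, that of cyfluthrin replicate 8, where it reached -4.19. Its remaining cyfluthrin arrays lay between -7.51 and -6.92. In control it lay between -7.47 and -6.97 on 7 arrays and at -4.90 on that of replicate 1, where it was not well above background. It was above background on 0 of 8 control and 1 of 8 cyfluthrin arrays, so no fold is given. The next dimmest, contig_6190, was above background on 5 control and 6 cyfluthrin arrays, with levels of -6.31 to -4.18 (median -4.95) and -6.31 to -3.45 (median -4.64). The third, contig_213, was above background on all 16, at -4.59 to -3.42 in control (median -4.28) and at -4.74 to -2.96 with cyfluthrin (median -4.22). As in contig_7105, its highest control array was that of replicate 1 and its highest cyfluthrin array that of replicate 8.

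The spots of a contig differed little from each other on the same array. The SD between the spots of a contig, pooled over the 16 arrays, had a median of 0.098 log2 units over the 49 tested contigs, with quartiles of 0.065 and 0.17. The 5539 tested contigs with 2 spots had a median of 0.099, and the first 2 spots of the repeatedly printed contigs alone gave 0.0911. These values leave out readings marked as outliers among a contig's spots, of which the contigs with 2 spots had 0. With the marked readings kept, the median of the repeatedly printed contigs was 0.105. The error of a spot was thus about the same whether it was measured over many spots or over a pair.

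The SD between spots fell with brightness. It was smallest in contig_2124 (0.046), contig_1380 (0.049) and contig_2968 (0.050), and greatest in contig_6150 (0.456), contig_4861 (0.335) and contig_6190 (0.301). Over the 49 contigs, the Spearman correlation of the mean level with the SD between spots was -0.903, given as a description of contigs that share the same arrays. In the dim, middle and bright class the median SD between spots of the repeatedly printed contigs was 0.177, 0.083 and 0.059. The 2-spot contigs of the same classes had 0.212, 0.0859 and 0.0632.

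The high value of contig_6150 came from the arrays on which it was dim. Its spots had an SD of 1.33 on the array of control replicate 5 and of 0.833 on that of cyfluthrin replicate 4, where its levels were -6.23 and -5.82. On the array of cyfluthrin replicate 6, where it was at its highest level of -1.53, the SD between its spots was 0.048. On 12 of the 16 arrays its signal was well above background.

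The spread between samples was several times that between spots. The pooled SD between samples of a group had a median of 0.492 over the 49 contigs, with quartiles of 0.321 and 0.681, and ran from 0.196 in contig_1380 to 2.92 in contig_4861. The ratio of the SD between samples to the SD between spots had a median of 5.62 and was above 1 in all 49 contigs and above 2 in 47. Averaging over 10 or 11 spots leaves a median of 0.296% of the variance between samples to the spots, with a range of 0.0666% to 2.99%, and under 1% in 39 of the 49. A single spot in place of all of them, with outlier-marked readings kept, gave a median SD between samples of 0.497 instead of 0.492. Printing a contig 10 or 11 times hence hardly narrowed the spread between samples.

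**Figure D2:**
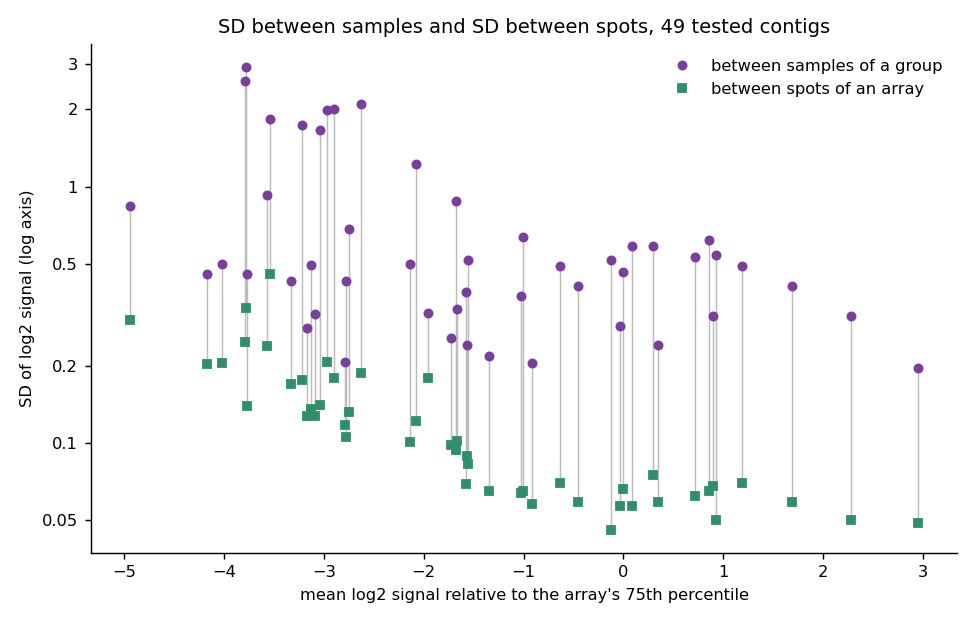
SD between samples of a group (circles, 8 control and 8 cyfluthrin arrays pooled) and SD between spots of an array (squares) for each of the 49 tested contigs, joined by a line, against the mean log2 signal relative to the array's 75th percentile; the vertical axis is logarithmic. The squares fall with brightness from 0.456 to 0.046, and every circle lies above its square.

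The greatest ratios were those of contig_709 (11.8), contig_2124 (11.2) and contig_5342 (11.2), and the smallest those of contig_3629 (1.75), contig_6854 (1.78) and contig_4631 (2.19). The large ratios had different bases. The SD between samples of contig_709 was 1.67 and that of contig_5342 was 2.01, whereas that of contig_2124 was 0.519, with the smallest SD between spots of all 49. In contig_3629 the samples were close to each other, from -3.02 to -2.45 in control (median -2.69) and from -3.29 to -2.54 with cyfluthrin (median -2.94), with an SD between samples of 0.207 and between spots of 0.118. Besides contig_1380, the smallest SDs between samples were those of contig_3069 (0.206) and contig_3629. The levels of contig_3069 ran from -1.20 to -0.64 in control (median -0.99) and from -1.24 to -0.46 with cyfluthrin (median -0.88).

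In contig_6854 the small ratio came with spots that differed more than in other contigs of its brightness. Its SD between spots was 0.18, against a median of 0.083 in the middle class of brightness, and its SD between samples was 0.321. With outlier-marked readings kept, a fixed difference between its places on the array made up 28.4% of the variance between its spots. Over the 50 contigs this share had a median of 8.32% and ran from 0 to 40.5%, with the highest value in contig_1274. In contig_4631, whose spots had an SD of 0.128, the samples ranged from -3.59 to -2.77 in control (median -3.19) and from -3.60 to -2.84 with cyfluthrin (median -3.08).

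The repeatedly printed contigs differed more between samples than the array as a whole. The median SD between samples over all 7574 tested contigs was 0.344, with quartiles of 0.234 and 0.543. In the dim, middle and bright class, the medians of the repeatedly printed contigs were 0.759, 0.388 and 0.478, and those of all contigs 0.527, 0.313 and 0.249. Contigs that varied together, described below, count separately in these medians. In the dim class these included contig_603, contig_709, contig_4861, contig_5342 and contig_7648 (SDs of 1.67 to 2.92), contig_2256 (2.58) and contig_6150 (1.83). They also included contig_96, contig_213, contig_2376, contig_6093, contig_8281 and contig_3854 (0.427 to 0.929). The other dim contigs ran from 0.207 (contig_3629) to 2.09 (contig_3456). Of the dim contigs, contig_2256, contig_4861 and contig_6150, among others, were not well above background on part of the arrays. In the bright class they included contig_883, contig_884, contig_2124, contig_2968, contig_4433 and contig_6324, with SDs of 0.464 to 0.622. The other bright contigs ran from 0.196 (contig_1380) to 0.586 (contig_2905). The ratio to the SD between spots was above 5 in 27 of 49 contigs (55.1%), against 24.2% of the tested contigs with 2 spots, whose median ratio was 3.23. The 2 sides are not fully alike, as readings marked as outliers among a contig's spots were left out and contigs with 2 spots had 0 such marks. With these readings kept, the median ratio of the repeatedly printed contigs was 4.62 instead of 5.62. These medians and shares are descriptions and were not tested. How the probes to be printed repeatedly were picked is not given in the sources used here.

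The widest spread was that of contig_4861. In control it ran from -7.08 to 1.02 (median -3.38), and with cyfluthrin from -7.47 to -0.34 (median -5.73). It was well above background on 4 control and 4 cyfluthrin arrays, and on 7 of those its spots had an SD of 0.023 to 0.079 while its level ran from -2.27 to 1.02. On the other 9 arrays the SD between its spots was 0.278 to 0.833. The levels of contig_2256 ran from -7.37 to -1.13 in control (median -3.63) and from -7.23 to -0.83 with cyfluthrin (median -3.14), with 5 control and 6 cyfluthrin arrays above background. Those of contig_3456 ran from -6.28 to 1.56 (median -1.98) and from -4.93 to 0.45 (median -3.46), with 7 and 7 above background. Their SDs between samples were 2.92, 2.58 and 2.09, and in each the groups overlapped over most of their range.

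**Figure D3:**
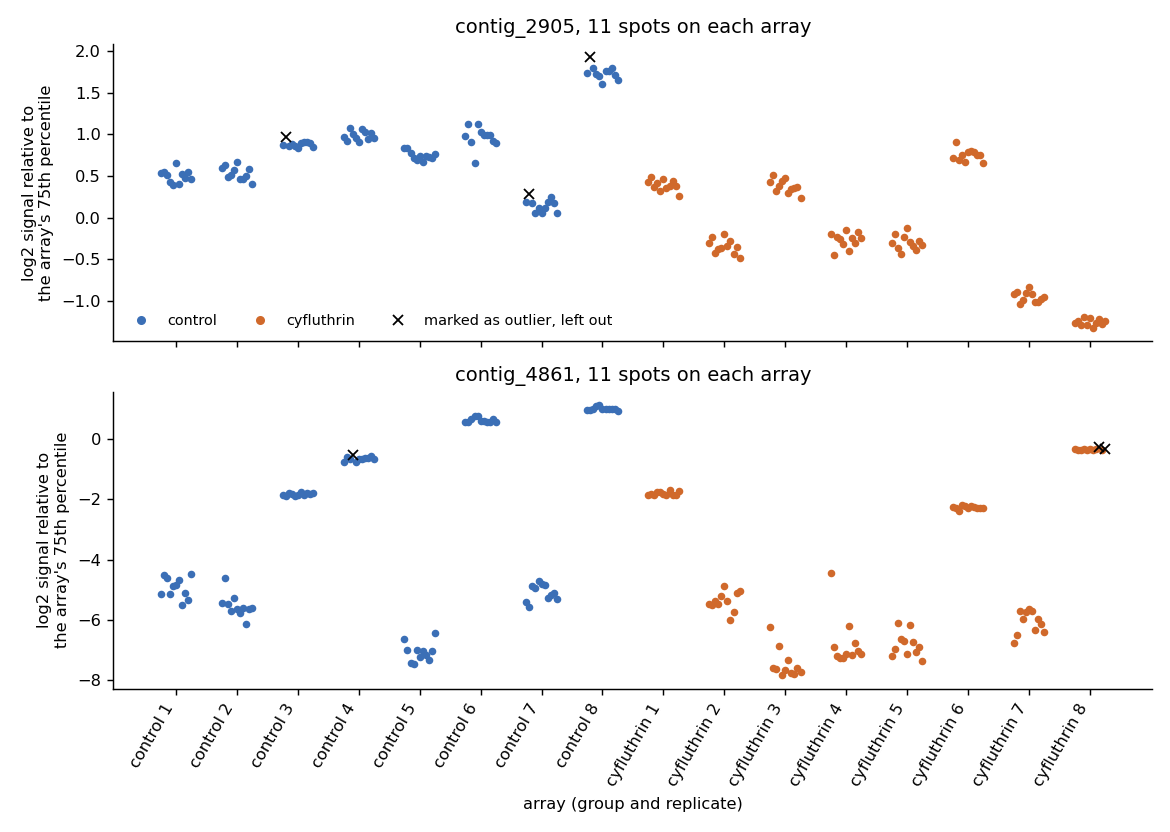
Every spot of contig_2905 (upper panel) and contig_4861 (lower panel) on each of the 16 arrays, as log2 signal relative to the array's 75th percentile; crosses are spots marked as outliers by the scanner software and left out. The spots of an array stay close together in contig_2905, whereas in contig_4861 arrays differ by up to several log2 units and spots scatter on the arrays where it is dim.

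In 30 of the 49 contigs (61.2%) the cyfluthrin samples had a higher SD than the control samples, against 75.7% of all tested contigs. The median SD was 0.455 in control and 0.505 with cyfluthrin, and 0.286 and 0.38 over all tested contigs. Neither difference was tested, and both rest on few arrays: without cyfluthrin replicate 1 the median with cyfluthrin was 0.449, below that in control, and with each array left out in turn the count of 30 became 23 (without control replicate 2) to 33 (without control replicate 5). The greatest gains in SD with cyfluthrin were those of contig_96, from 0.46 to 0.84, and contig_5073, from 0.20 to 0.54. In both, the lowest cyfluthrin array was that of replicate 1 and the highest that of replicate 2. The levels of contig_96 ran from -3.25 to -2.10 in control (median -2.76) and from -4.48 to -1.82 with cyfluthrin (median -2.57), and those of contig_5073 from -0.81 to -0.32 (median -0.48) and from -1.20 to 0.61 (median -0.39). The greatest losses were those of contig_1411, from 1.51 to 0.84, and contig_3456, from 2.36 to 1.79. The levels of contig_1411 ran from -4.90 to -0.34 in control (median -2.09) and from -3.28 to -0.89 with cyfluthrin (median -1.48).

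Some of the contigs rose and fell together from array to array. After the group means were subtracted, the Pearson correlation over the 16 arrays had a median of 0.0028 over the 1176 pairs of tested contigs and was above 0.8 in 44 pairs. Linking such pairs, a step chosen after the values were seen, gave 5 sets with 24 contigs in all. The correlations describe contigs that share arrays and scaling and carry no p. Without gene names it cannot be said whether contigs of a set are fragments of the same transcript.

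The greatest set held 8 contigs (contig_883, contig_884, contig_1274, contig_2124, contig_2968, contig_4433, contig_6324 and contig_7102), with correlations of 0.80 to 0.968. As a deviation from each contig's mean over the 16 arrays, averaged over the set, it ran from -1.18 (replicate 3) to 0.36 (replicate 5) in control and from -0.46 (replicate 4) to 0.89 (replicate 7) with cyfluthrin. Their log2 changes with cyfluthrin were 0.43 to 0.64, with limma adjusted p from 0.129 to 0.364. Its range within each group was wider than the change between the groups. The same held for contig_2905, the contig called below, so nothing is read from this.

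A set of 5 (contig_603, contig_709, contig_4861, contig_5342 and contig_7648) had correlations of 0.544 to 0.953 and SDs between samples of 1.67 to 2.92. It was high on the arrays of control replicates 4, 6 and 8 and cyfluthrin replicates 6 and 8, with mean deviations of 1.81, 2.92, 3.45, 1.11 and 2.74. It was lowest on those of control replicate 5 (-1.95) and cyfluthrin replicates 3 (-2.30), 5 (-2.03) and 4 (-1.84). High and low arrays occurred in both groups. The log2 changes of these 5 contigs were -1.69 to -0.69, with limma adjusted p from 0.536 to 0.705.

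A set of 6 (contig_96, contig_213, contig_1184, contig_2376, contig_6093 and contig_8281) had correlations of 0.333 to 0.942, so that not all of its pairs were close. It was lowest on the array of cyfluthrin replicate 1, with a mean deviation of -1.21, and highest on those of cyfluthrin replicate 8 (0.88) and control replicate 1 (0.73). Its changes lay between -0.22 and 0.16. A set of 3 (contig_2256, contig_3961 and contig_6150), with correlations of 0.733 to 0.877, was low on the arrays of control replicates 4 and 5 (-2.61 and -2.63) and cyfluthrin replicates 4 and 7 (-2.09 and -2.25), which were 2 arrays of each group. The last set was contig_3709 and contig_3854, with a correlation of 0.825. Of the contigs with neighbouring numbers, contig_883 and contig_884 had a correlation of 0.837, and contig_6324 and contig_6325 one of -0.401.

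Between the groups, 1 of the 49 tested contigs differed, contig_2905, which was lower with cyfluthrin (limma, Benjamini-Hochberg adjusted p under 0.05 over all 7574 tested contigs). Of all tested contigs 7.41% were called, and 3.66% were called lower. By the same limma test 0 of the 49 were called higher. Without adjustment, limma gave p under 0.05 for 9 of the 49 (18.4%), 5 higher and 4 lower, against 21.8% of all tested contigs. In 0 of the 49 did all values of a group lie beyond all values of the other, against 1.91% of all tested contigs. With 49 contigs these shares are near those over the array, and nothing is read from the difference.

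**Figure D4:**
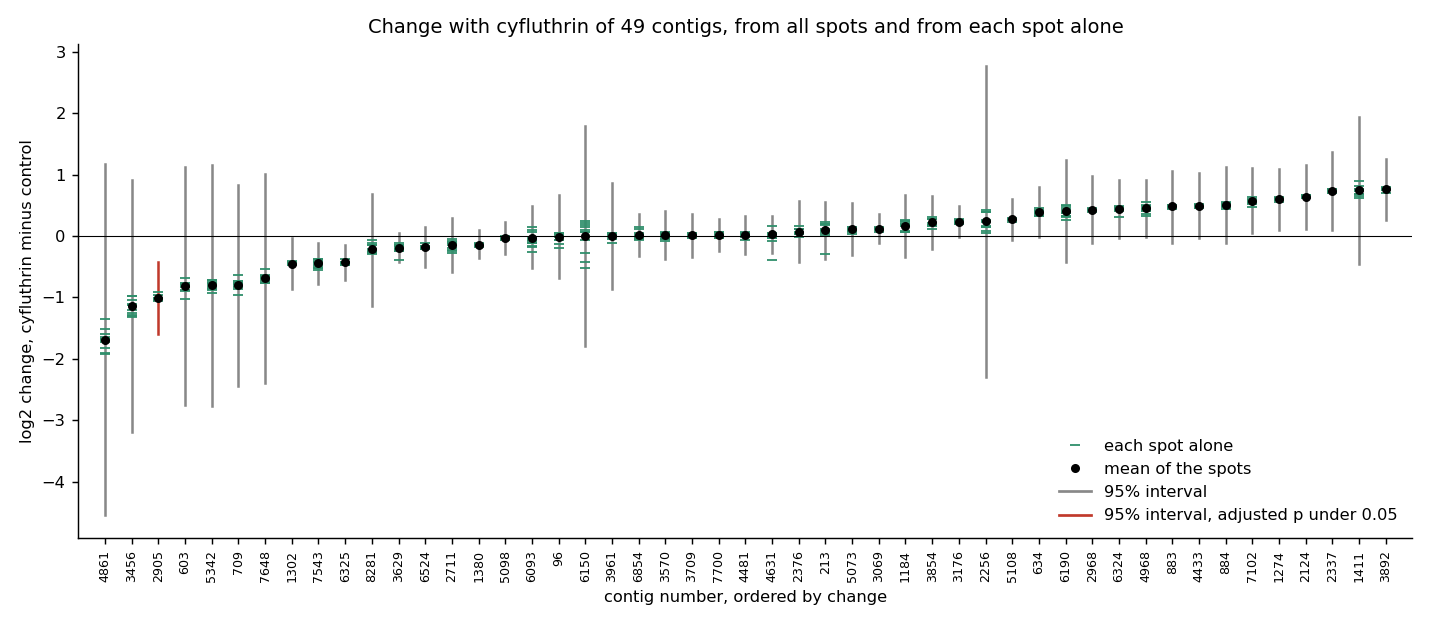
Log2 change with cyfluthrin (cyfluthrin minus control, 8 arrays each) of the 49 tested contigs, ordered by size: black points are the change of the mean over spots, vertical lines its 95% interval from limma, and dashes the change from each spot alone. The interval in red is that of contig_2905, the only one of the 49 with a limma adjusted p under 0.05. The dashes, for which outlier-marked readings were kept, lie close to the points compared with the intervals.

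In control, contig_2905 had levels of 0.14 to 1.72 (median 0.81), with a mean of 0.81 ± 0.47 (SD, n = 8 arrays). With cyfluthrin it had levels of -1.25 to 0.75 (median -0.28), with a mean of -0.20 ± 0.69 (SD, n = 8 arrays). The groups overlapped: 3 of the 8 cyfluthrin arrays, those of replicates 1, 3 and 6, lay above the lowest control array, that of replicate 7. The log2 change was -1.01 (SE 0.277, 95% interval -1.59 to -0.42, limma adjusted p = 0.0349). On slide 1 alone it was -0.68 (limma adjusted p = 0.373) and on slide 2 alone -1.33 (limma adjusted p = 0.288), so the direction was the same on both slides, each with 4 arrays per group.

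The spots of contig_2905 gave nearly the same result. Its SD between spots was 0.075, and each of its 11 places on the array taken alone gave a log2 change between -1.06 and -0.91. From such single spots, with outlier-marked readings kept, it was called in 10 of 11 cases (limma adjusted p from 0.0277 to 0.0505). Leaving out 1 array moved the log2 change more than using 1 spot. The change lay between -1.14 and -0.86, and the call was lost in 9 of 16 cases (limma adjusted p from 0.0138 to 0.0736 over the 16). Those fits had 1 array fewer for all tested contigs, so the counts of lost calls are not alike. The call was lost without control replicate 3, 4, 5, 6 or 8 and without cyfluthrin replicate 2, 5, 7 or 8. The adjusted p was highest, 0.0736, without cyfluthrin replicate 7. The call was also lost with each array scaled to its median (limma adjusted p = 0.0675) and after normexp background correction (limma adjusted p = 0.067, log2 change -0.72).

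The other 8 contigs with an unadjusted p under 0.05, named after their values were seen, did not pass the threshold. In contig_6325 the levels were -1.94 to -1.17 in control (median -1.53) and -2.30 to -1.63 with cyfluthrin (median -1.95), a log2 change of -0.43 (SE 0.132, limma adjusted p = 0.057). In contig_3892 they were 0.17 to 1.53 (median 0.79) and 0.98 to 2.65 (median 1.48), a log2 change of 0.76 (SE 0.234, limma adjusted p = 0.0605). In both contigs the groups overlapped. The log2 change was -0.44 in contig_7543, -0.45 in contig_1302, 0.57 in contig_7102, 0.60 in contig_1274, 0.64 in contig_2124 and 0.73 in contig_2337, with limma adjusted p from 0.1 to 0.198. Of these, contig_1274, contig_2124 and contig_7102 belong to the set of 8 that varied together. The count of called contigs was the more sensitive for these near misses: without cyfluthrin replicate 4 it was 3 (contig_2905, contig_6325 and contig_2337), without control replicate 5 it was 2 (contig_3892 and contig_6325), and without 8 other arrays, each in turn, it was 0. With the row of a slide as a random block it was 8, among 18.2% of all tested contigs, at an estimated correlation within rows of -0.118. Each row held arrays of a single group, and with this negative estimate the SE of contig_2905 was 0.219 in place of 0.277. Nothing is therefore read from the higher count.

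Over the 49 contigs, the log2 change had a median of 0.02, against 0.00872 over all tested contigs, and 31 changes were above 0 and 18 below. With scaling to spike-in probes the median was -0.23, beside -0.24 over all tested contigs, and after normexp background correction 0.32, beside 0.27. Relative to the array as a whole the median thus stayed near 0. The size of the change had a median of 0.27, against 0.189, and its standard error one of 0.234, against 0.169. The greater standard error went with the greater spread between samples described above.

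The 95% interval of the log2 change lay within 1 of 0 in 29 of the 49 contigs (59.2%), against 83.8% of all tested contigs. It lay within 0.5 of 0 in 11. In 7 of the 49 it reached beyond 2 in size, downward alone in 6 of them (contig_603, contig_709, contig_3456, contig_4861, contig_5342 and contig_7648) and both ways in contig_2256. The change closest to 0 by its interval was that of contig_7700, 0.01 (95% interval -0.25 to 0.28), whose levels were -1.89 to -1.39 in control (median -1.54) and -1.97 to -1.14 with cyfluthrin (median -1.64). In contig_5098 the change was -0.04 (-0.30 to 0.23), with levels of 0.09 to 0.76 (median 0.36) and 0.08 to 0.70 (median 0.26), and in contig_4631 it was 0.03 (-0.27 to 0.33). For these 3 the groups overlapped. In contig_7700, cyfluthrin replicates 3 (-1.14) and 5 (-1.16) lay above every control array.

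The greatest estimated change was not the best determined. It was that of contig_4861, -1.69, with a 95% interval of -4.55 to 1.17 and a limma adjusted p of 0.536. That of contig_3456 was -1.14 (-3.19 to 0.91), and -2.14 on slide 1 and -0.14 on slide 2. That of contig_2256 was 0.24 (-2.29 to 2.76), and that of contig_6150 was 0.00 (-1.79 to 1.79). Values below background on part of the arrays enter these changes in contig_4861, contig_3456, contig_2256 and contig_6150.

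The spot used mattered little for the change. Each spot was fitted alone with outlier-marked readings kept, whereas the mean over spots leaves them out. Between the lowest and the highest change from a single spot lay a median of 0.17, with a range over contigs of 0.05 to 0.78, and in 36 of the 49 contigs all spots gave a change of the same sign. The widest range was that of contig_6150, from -0.53 to 0.25. In contig_4631 the single spots gave -0.39 to 0.17, with the next lowest at -0.09, and in contig_3892 0.70 to 0.79. The standard error of the change was larger than this range in 41 of the 49 contigs, as the plot of changes from single spots shows.

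The scanner software had marked 236 of the 8688 readings (2.72%) as outliers among the spots of a contig. These were left out, except where each spot was taken alone and in the share of a fixed difference between places. It marked 0 of the 234640 readings of contigs with 1 or 2 spots in this way. A mark of this kind needs other spots of the same contig, which contigs with 1 spot lack and contigs with 2 barely have. The 0 is therefore not read as better agreement between their spots. Marks fell on 48 of the 50 contigs, and 174 of the marked readings lay above the median of the contig's other spots on that array and 62 below. Their distance from it had a median of 0.20 log2 units, with extremes of -3.53 (contig_4631, cyfluthrin replicate 3) and 4.16 (contig_7105, control replicate 7). With these readings kept, the median SD between spots was 0.105 instead of 0.098. In contig_884, named after its values were seen, it rose from 0.065 to 0.24.

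The agreement between spots differed between arrays. The median SD between spots over the 49 contigs was 0.067 to 0.098 on the control arrays (0.0788 ± 0.0112, SD, n = 8) and 0.056 to 0.133 on the cyfluthrin arrays (0.078 ± 0.0237, SD, n = 8), so the groups overlapped. The highest value, 0.133, was that of cyfluthrin replicate 4, on which 17 of the contigs had their greatest SD between spots. The lowest, 0.056, was that of cyfluthrin replicate 8. The software's own median coefficient of variation of repeated probes, in the file headers, was also highest (9.27%) and lowest (4.13%) on these arrays.

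**Figure D5:**
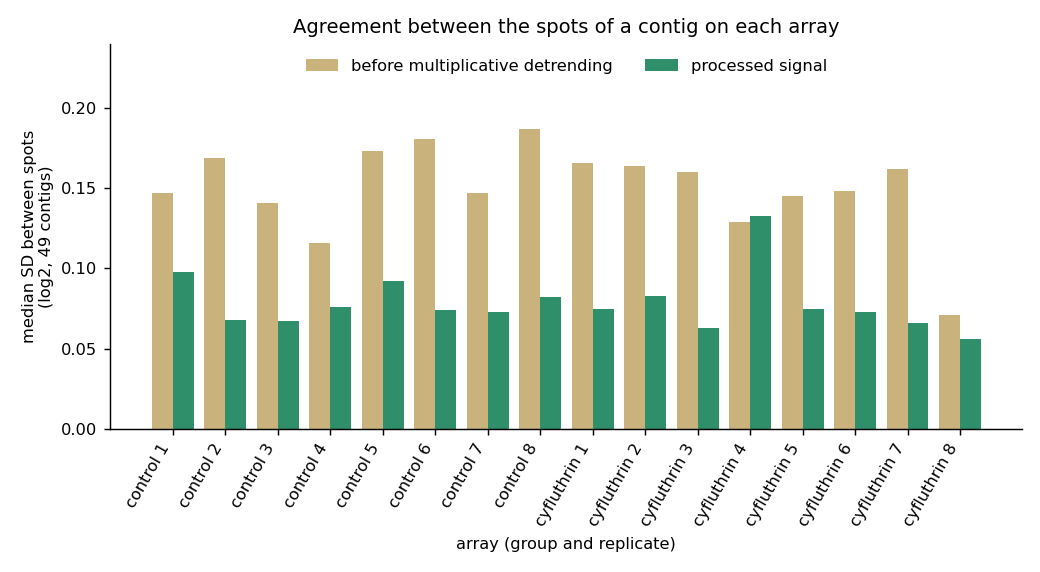
Median SD between the spots of a contig over the 49 tested contigs on each of the 16 arrays, in log2 units, before (light bars) and after (dark bars) the scanner software's multiplicative detrending. Detrending lowered the value on 15 arrays, and on that of cyfluthrin replicate 4 it was 0.129 before and 0.133 after.

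Part of the spread between spots had been removed by the software before deposit. Multiplicative detrending scales each signal for its place on the array. Before it, the median SD between spots was 0.159 in the repeatedly printed contigs and 0.165 in the contigs with 2 spots. With the columns of the array split into 3 blocks, spots in the middle block then lay 0.067 to 0.16 above their contig's mean on 15 arrays and 0.002 above it on that of cyfluthrin replicate 8. After detrending, the mean deviation of each block lay between -0.047 and 0.05 on all 16, with both extremes on the array of cyfluthrin replicate 4. With the signals before detrending, the ratio of the SD between samples to the SD between spots had a median of 3.24 instead of 5.62, and contig_2905 remained the only contig of the 49 to be called.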

How the data were processed

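The intensity used is the processed signal of the deposited scanner output. Agilent Feature Extraction (10.7.1.1 per the file headers; the submitters' processing notes name 9.1) had subtracted the background and detrended it for the place on the array, per the file headers, without normalization between arrays. The authors' deposited value table holds log2 values. Its columns correlated at 0.994 to 0.999 with quantile-normalized log2 signals centred on each probe's median over the arrays, with the direction kept and column medians of -0.038 to 0.048; the sources used here do not give the steps themselves. All 16 columns belong to a sample, and 0 were left out.

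Samples were grouped by their titles. Each spot's processed signal was taken as log2 minus the log2 of its array's 75th percentile over contig spots. Outlier-marked spots were left out, and the mean over a contig's spots was used. Marked spots were kept where each spot was taken alone and in the share of a fixed difference between places. To be tested, a contig needed 50% or more of its spots well above background on 8 or more of the 16 arrays. All 7574 such contigs were fitted with limma 3.58.1 under R 4.3.3 (2-sided, lmFit followed by eBayes, no covariate), with Benjamini-Hochberg adjustment over all of them and a threshold of 0.05. The SD between spots of a contig is the root of its mean variance over arrays. The SD between samples is pooled over the groups, and tables were handled in Python 3.11.15. The fit was tested on simulated data.

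The contigs and lists were chosen with earlier results of these data known. The contigs named by rule were those called, not tested or saturated, the 3 at each end of the mean level, of the SD between samples, of the SD between spots and of their ratio, the 2 with the greatest difference in SD between groups each way, and the 3 whose interval stayed closest to 0. Others are said to be named after their values were seen, or belong to the sets of contigs that varied together. Per the file headers, replicates 1 to 4 of both groups lay on slide 1 and 5 to 8 on slide 2; each group filled a row of a slide, and rows were swapped between slides. Alternatives were other normalizations, background corrections (normexp with an offset of 50), filters, blocks, variance models, single spots and each array left out. Signals before multiplicative detrending, and control replicate 1 with cyfluthrin replicate 4 left out, were added after seeing the data.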

Additional observations from a re-analysis of the deposited data

Results flagged for a closer look

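Of 58 groups of 8 values checked, covering the named contigs and 5 measures of the arrays, 8 held an array far from the rest of its group (Dixon's criterion at 95%, by which chance flags about 1 in 20). The level of contig_7105 was -4.90 on the array of control replicate 1, with the others at -7.47 to -6.97, and -4.19 on that of cyfluthrin replicate 8, with the others at -7.51 to -6.92. The level of contig_213 was -3.42 on the array of control replicate 1, with the others at -4.59 to -4.15, and -2.96 on that of cyfluthrin replicate 8, with the others at -4.74 to -3.91. The level of contig_6854 was -1.36 on the array of cyfluthrin replicate 3, with the others at -2.24 to -1.84. The median SD between spots was 0.133 on the array of cyfluthrin replicate 4, against 0.056 to 0.083 on the other cyfluthrin arrays. Before multiplicative detrending it was 0.071 on that of cyfluthrin replicate 8, against 0.129 to 0.166. The share of spots of the repeatedly printed contigs well above background was 87.5% on the array of control replicate 5, against 93.9% to 96.5% on the other control arrays.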

How the results depend on the processing

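In the fit as reported, 0 of the 49 contigs were called higher and 1 lower. It was 1 higher and 2 lower with quantile normalization, with the authors' deposited values, with only contigs well above background on all 16 arrays, with array weights, and at an adjusted p under 0.1, and in each the contigs were contig_2905, contig_3892 and contig_6325. A trended, robust variance gave 1 higher, the median of spots 2 lower, and the row of a slide as a random block 5 higher and 3 lower. With each array scaled to its median, with normexp, with the replicate block and on either slide alone, 0 were lower. Single spots in place of the mean gave 0 to 1 higher and 0 to 2 lower, and leaving out each array in turn likewise 0 to 1 higher and 0 to 2 lower. The replicate block gave contig_2905 an adjusted p of 0.0837 (limma); same-numbered samples correlated at -0.273 to 0.462 (mean 0.0883), so the numbers are not shown to pair them. On slide 1 alone the adjusted p of contig_2905 was 0.373 and on slide 2 alone 0.288 (limma). Over the settings other than single spots, left-out arrays and either slide alone, it was 0.00446 to 0.0837 (limma). With control replicate 1 and cyfluthrin replicate 4 left out together, it was 0.0518 and contig_7543 was called in its place.

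The median log2 change, 0.02, became -0.23 with spike-in scaling and 0.32 with normexp, beside -0.24 and 0.27 over all tested contigs. With normexp the median SD between control samples was 0.299 in place of 0.455. The median SD between spots, 0.098, was 0.079 in contigs above background on all 16 arrays, 0.133 with the raw signal minus local background and 0.159 before multiplicative detrending, where the ratio of the 2 SDs was 3.24 in place of 5.62. A total of 856 repeats covered the contigs named by rule. Other contigs of the text, among them contig_3892, contig_6325, contig_2337 and contig_7543, are not counted here, though each was called in some settings. Of the 856 repeats, 839 stayed on the same side of the threshold and 16 lost a call, all of them that of contig_2905. In 1 repeat a call was gained, by contig_2124 with the row of a slide as a random block. The sign, at 2 decimals, turned in 61 repeats of 10 contigs, whose changes as reported were at most 0.24 in size and of which 0 were called. The cause of these differences was not tested. On the arrays where contig_4861 or contig_7105 was not well above background, its level is an upper bound rather than a measured value. The same holds on such arrays for contig_2256, contig_3456, contig_5342, contig_6150, contig_6190 and contig_8281.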
